A study of Mus musculus with 9 samples.

Results

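Transcripts of 10 chemokine genes that recruit neutrophils and monocytes were followed in primary white adipocytes exposed to parathyroid hormone (PTH) or parathyroid hormone-related protein (PTHrP): Cxcl1, Cxcl2, Cxcl5, Cxcl12, Cxcl14, Ccl2, Ccl7, Ccl8, Ccl9 and Cx3cl1. The set was made by gene symbol, taking every probe set whose only symbol in the platform table was that of a listed gene. It held 19 of the 45101 probe sets and 10 of the 18193 genes measured. All 9 arrays carried the same kind of culture. Stromal-vascular cells came from the inguinal fat of male C57BL6 mice, 30 to 35 days old. Differentiation began with rosiglitazone (1 µM), isobutylmethylxanthine (0.5 µM), dexamethasone (1 µM) and insulin (5 µg/ml) over 2 days. They were then fed insulin and rosiglitazone, and had medium alone from day 6. On day 8, PTH(1-34) was added to 3 samples and PTHrP(1-34) to 3 others, each at 100 ng/ml for 4 h, with 3 samples as controls. The sample titles call the samples of each group biological replicates. The sources used here do not give whether these were separate mice or cultures, or what the controls received. The p-values therefore cover no more than the spread between these samples. The cells were mixed cultures grown from a tissue fraction, so in every result below fewer cells of a type and less RNA per cell cannot be told apart.

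Chemokines are small secreted proteins that attract leukocytes along a gradient by binding G-protein-coupled receptors on them. Cxcl1, Cxcl2, Cxcl3 and Cxcl5 bind Cxcr2 and draw neutrophils, while Ccl2 and Ccl7 bind Ccr2 and bring monocytes out of bone marrow and into tissue. In adipose tissue, Ccl2 is best known for the macrophage accumulation that accompanies obesity, and the genes of the Cxcr2 ligands are classic targets of the transcription factor NF-κB. PTH and PTHrP act on a shared receptor, Pth1r, whose main signal is cyclic AMP.

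The median intensity per array lay between 48.3 and 52.7, and 9 of the 10 genes had a mean above the dim level of 29.2, which is the 40th percentile of all probe sets. The adipocyte marker Adipoq (adiponectin) read 13618 ± 300.3 in controls (SD, n = 3). Fabp4, the fatty acid carrier of fat cells, read 17944 ± 386 and was the brightest probe set on each array, so it may have been saturated. Of 8 adipocyte markers measured, Cidec, a lipid droplet protein, rose with each peptide, from 2484 to 3029 with PTH and 3081 with PTHrP, while leptin (Lep) lay below the dim level. Over all genes, 2.96% were called higher with PTH and 2.54% with PTHrP. The Cidec call was lost in 8 of 18 alternative analyses for PTH and in 9 of 18 for PTHrP, among them those without control 1, 2 or 3, PTH 1, 2 or 3 or PTHrP 2 for PTH (adjusted p from 0.0517 to 0.132) and without control 1, 2 or 3, PTHrP 1 or 2 or PTH 2 or 3 for PTHrP (0.0519 to 0.107). Of 9 preadipocyte and fibroblast markers, Pdgfrb, a growth factor receptor of stromal cells, fell from 3723 to 2999 with PTH and to 2929 with PTHrP. Over all genes, 3.14% were called lower with PTH and 3.03% with PTHrP. The Pdgfrb call for PTH was lost without PTH replicate 2 (adjusted p = 0.0504) or 3 (0.0567, limma). For actin, the array control for RNA integrity, the 3'/5' intensity ratio was 1.45 to 1.51 in controls, 1.59 to 1.65 with PTH and 1.52 to 1.61 with PTHrP. The ratio was thus higher on each treated array than on any control, whereas that of Gapdh overlapped, at 0.950 to 0.985, 0.980 to 0.988 and 0.931 to 0.975. Their part in the results was not tested.

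Promoter sequences are shown for Cxcl1, Cxcl2 and Cxcl3, close neighbours of which Cxcl1 and Cxcl3 rose and Cxcl2 stayed below the dim level. In the RefSeq gene order of GRCm38.p6, no protein-coding gene lies between Cxcl1 and Cxcl2, and Cxcl15 alone lies between Cxcl3 and Cxcl1. Cxcl3 belongs to the list of other ligands and is shown because it was the gene of that list called higher with both peptides. Each line gives the 250 bases before the gene's start on the plus strand, from RefSeq on GRCm38.p6, at chr5:90890995-90891244 for Cxcl1, chr5:90903649-90903898 for Cxcl2 and chr5:90785851-90786100 for Cxcl3. Capitals mark GGAATTTCC, a core form of the NF-κB motif.
Cxcl1: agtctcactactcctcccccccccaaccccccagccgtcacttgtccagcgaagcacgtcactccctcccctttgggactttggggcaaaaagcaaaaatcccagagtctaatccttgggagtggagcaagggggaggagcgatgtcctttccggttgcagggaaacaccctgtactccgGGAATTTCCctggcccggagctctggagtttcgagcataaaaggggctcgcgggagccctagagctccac
Cxcl2: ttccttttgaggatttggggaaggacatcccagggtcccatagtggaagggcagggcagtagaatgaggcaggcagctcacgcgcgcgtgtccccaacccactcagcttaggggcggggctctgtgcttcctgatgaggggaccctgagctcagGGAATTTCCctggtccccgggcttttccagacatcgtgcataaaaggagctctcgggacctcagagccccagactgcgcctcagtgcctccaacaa
Cxcl3: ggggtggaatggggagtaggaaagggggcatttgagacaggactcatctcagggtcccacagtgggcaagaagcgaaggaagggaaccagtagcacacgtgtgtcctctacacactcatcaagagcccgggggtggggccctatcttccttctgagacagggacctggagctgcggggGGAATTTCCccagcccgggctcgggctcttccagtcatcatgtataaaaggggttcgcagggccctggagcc
The motif began at position -70 in Cxcl1, -96 in Cxcl2 and -72 in Cxcl3, counted from the start, and was found in 104 of 32841 promoter windows of 300 bases (0.317%). It was present in Cxcl1 and Cxcl3, whose transcripts rose, and in Cxcl2, whose transcript stayed below the dim level. Cxcl10, of the other ligands, also had it (at -158, on the other strand) and was not called with either peptide. The full cyclic AMP response element, TGACGTCA, was in none of the windows of the 7 chemokine genes that had a window, and in 1.79% of all windows. Cxcl5, Ccl2 and Ccl7 had no promoter window, so the motif search does not cover them. Its shorter form TGACG, which is also part of the full one, was in the windows of Cxcl1 (at -215 and -194) and Cxcl12 (at -61) and in 20.8% of all. The AP-1 motif TGANTCA was in that of Ccl9 (at -53) and in 7.81% of all. Both strands were searched, and a match is a description of letters, not of binding.

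PTH and PTHrP were each compared with control to ask which chemokine transcripts had changed within 4 h. With each peptide, 5 of the 10 genes rose (Cxcl1, Cxcl5, Cxcl14, Ccl9 and Cx3cl1), 2 fell (Ccl2 and Ccl7), and Cxcl2, Cxcl12 and Ccl8 did not pass the test. Across all genes, 6.10% were called with PTH (2.96% higher, 3.14% lower) and 5.57% with PTHrP (2.54% higher, 3.03% lower), at a limma p adjusted over all genes below 0.05. The treated arrays lay wholly above the controls in the same 5 genes and wholly below in the same 2, against 12.8% and 13.2% of all genes with PTH and 10.4% and 12.0% with PTHrP. Over the 10 genes the median log2 change was 0.22 with PTH and 0.27 with PTHrP, beside -0.0027 and -0.0050 over all genes. The 10 genes were chosen with earlier results of these data known, so these shares and medians are descriptions, not a test of the set. Both comparisons used the same 3 controls, so their values are given side by side and are not independent of each other. Log2 changes are of intensity plus 16, so that for dim genes they are smaller than the ratio of means would be.

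**Figure D1:**
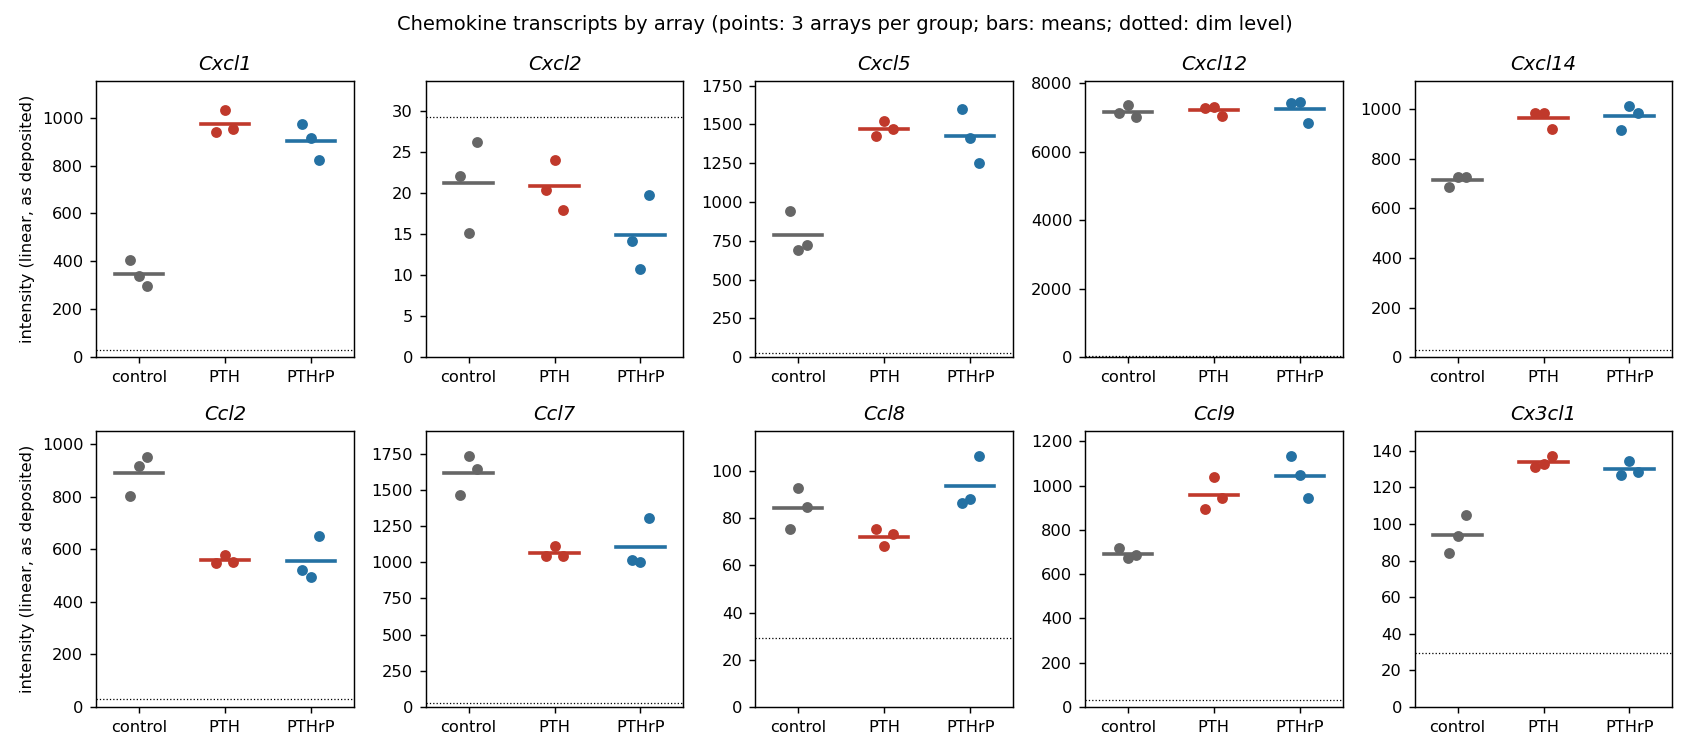
Intensity of the 10 chemokine genes on each array, 1 panel per gene; points are arrays, bars are group means of 3 arrays, the dotted line is the dim level of 29.2, and each panel has its own linear axis. The 3 PTH and 3 PTHrP arrays lie above all 3 controls for Cxcl1, Cxcl5, Cxcl14, Ccl9 and Cx3cl1 and below them for Ccl2 and Ccl7.

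Among the neutrophil attractants, Cxcl1 (Entrez gene 14825), the keratinocyte-derived chemokine, changed most. Its intensity was 405, 338 and 298 in the controls, 938, 1031 and 951 with PTH, and 975, 913 and 823 with PTHrP. All 6 treated arrays lay above the highest control. The mean went from 347 ± 54.2 (SD, n = 3) to 973 ± 50.2 with PTH, a ratio of 2.80, or 1.45 on the log2 scale (SE 0.11, limma adjusted p = 0.000288). With PTHrP it reached 903 ± 76.3, a ratio of 2.60, or 1.35 on the log2 scale (SE 0.11, limma adjusted p = 0.000424). By size of rise Cxcl1 ranked 7 of 18193 genes with PTH and 11 with PTHrP.

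Cxcl5 (20311), which also attracts neutrophils through Cxcr2 and is made by fat and epithelial cells, lies near Cxcl1 in the same gene cluster. It read 944, 688 and 724 in controls, 1424, 1523 and 1471 with PTH, and 1602, 1411 and 1253 with PTHrP. No treated array overlapped the controls, although the first control stood above the other two. The mean rose from 785 ± 138 to 1473 ± 49.4 with PTH (log2 change 0.91, SE 0.13, adjusted p = 0.00542, limma) and 1422 ± 175 with PTHrP (0.85, SE 0.13, adjusted p = 0.00738). The ratios of means were 1.88 and 1.81. Cxcl2 (20310), the macrophage inflammatory protein with the same receptor, read 22.1, 15.1 and 26.2 in controls, 20.4, 24.0 and 17.9 with PTH, and 14.2, 10.7 and 19.7 with PTHrP. All 9 values were below the dim level, so no change could be read from it (log2 changes -0.0059 and -0.27, adjusted p = 0.989 and 0.369, limma).

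Cxcl12 (20315), the stromal factor that retains neutrophils and stem cells in bone marrow, was high and level. Its intensity was 7131, 7352 and 6994 in controls, 7263, 7301 and 7033 with PTH, and 7411, 7431 and 6846 with PTHrP. The groups overlapped. The log2 change was 0.0082 with PTH (95% interval -0.11 to 0.12, adjusted p = 0.960, limma) and 0.013 with PTHrP (-0.10 to 0.13, adjusted p = 0.931), so the intervals left room for changes of up to about 0.13 either way. Cxcl14 (57266), a chemokine of epithelia and brown fat that attracts monocytes and related cells, rose modestly. It read 688, 724 and 725 in controls, 984, 984 and 919 with PTH, and 916, 1014 and 985 with PTHrP, with every treated array above every control. The mean went from 713 ± 21.3 to 962 ± 37.5 with PTH (log2 change 0.43, SE 0.06, adjusted p = 0.00439) and to 972 ± 50.8 with PTHrP (0.44, SE 0.06, adjusted p = 0.00393, limma).

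Of the monocyte attractants, Ccl2 and Ccl7 moved the other way. Ccl2 (20296), monocyte chemoattractant protein, read 802, 919 and 951 in controls, 548, 577 and 551 with PTH, and 520, 496 and 651 with PTHrP. Every treated array lay below the lowest control. The mean fell from 891 ± 78.6 to 559 ± 16.1 with PTH, a ratio of 0.627, or -0.65 on the log2 scale (SE 0.11, limma adjusted p = 0.0101). With PTHrP it fell to 555 ± 83.4, a ratio of 0.623, or -0.67 on the log2 scale (SE 0.11, limma adjusted p = 0.00915). Both calls held when any 1 array was left out, with adjusted p up to 0.0493 for PTH and 0.0436 for PTHrP. The PTHrP call missed the threshold when only those 2 groups were fitted (adjusted p = 0.0508).

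Ccl7 (20306), a further Ccr2 ligand whose gene adjoins Ccl2 with no protein-coding gene between them, had a like pattern. It read 1469, 1732 and 1646 in controls, 1042, 1113 and 1043 with PTH, and 1018, 1000.2 and 1306 with PTHrP, again with no overlap. The mean fell from 1616 ± 134 to 1066 ± 40.4 with PTH (log2 change -0.59, SE 0.11, adjusted p = 0.0168, limma) and to 1108 ± 172 with PTHrP (-0.55, SE 0.11, adjusted p = 0.0253). These calls were less firm. For PTH the adjusted p was 0.0674 without control replicate 2, 0.0603 without control 3, and 0.0618, 0.0519 and 0.0713 without PTH replicates 1, 2 and 3. For PTHrP it was 0.0886 and 0.0821 without controls 2 and 3, 0.0965 and 0.0754 without PTHrP replicates 1 and 2, 0.0506 without PTH replicate 3, and 0.0923 with only the 2 groups fitted.

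Ccl8 (20307), monocyte chemoattractant protein 2, lies in the same cluster as Ccl7 and was dimmer. Its intensity was 75.3, 93.0 and 84.7 in controls, 75.3, 68.1 and 73.3 with PTH, and 86.7, 88.3 and 107 with PTHrP. Neither group was separate from the controls (log2 change -0.18, adjusted p = 0.324 with PTH, and 0.13, adjusted p = 0.517 with PTHrP, limma). Ccl9 (20308), a mouse chemokine that attracts myeloid cells through Ccr1, rose instead. It read 716, 675 and 686 in controls, 893, 1041 and 944 with PTH, and 1133, 1047 and 946 with PTHrP. The mean went from 692 ± 21.4 to 959 ± 75.3 with PTH (log2 change 0.46, SE 0.08, adjusted p = 0.0141) and to 1042 ± 93.9 with PTHrP (0.58, SE 0.08, adjusted p = 0.00558, limma). No treated array overlapped a control. For PTH the adjusted p rose to 0.0575 and 0.0504 when control 2 or 3 was left out, and to 0.0538 and 0.0567 without PTH arrays 2 or 3, so that call was lost.

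Cx3cl1 (20312), fractalkine, is a membrane-tethered chemokine that is cut free by proteases and binds Cx3cr1 on monocytes. It read 84.0, 93.3 and 105 in controls, 131, 133 and 137 with PTH, and 127, 134 and 129 with PTHrP. Both treated groups lay above the controls with little spread. The mean rose from 94.0 ± 10.4 to 134 ± 2.98 with PTH (log2 change 0.45, SE 0.07, adjusted p = 0.00868, limma) and to 130 ± 3.95 with PTHrP (0.41, SE 0.07, adjusted p = 0.0130). The PTHrP call missed the threshold narrowly without control replicate 2 (adjusted p = 0.050) and with only the 2 groups fitted (0.0641). Averaged over its 4 probe sets, Cx3cl1 changed by 0.07 with PTH (adjusted p = 0.838, limma) and 0.13 with PTHrP (0.706). Of these probe sets, 3 were dim and did not pass the test with either peptide.

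**Figure D2:**
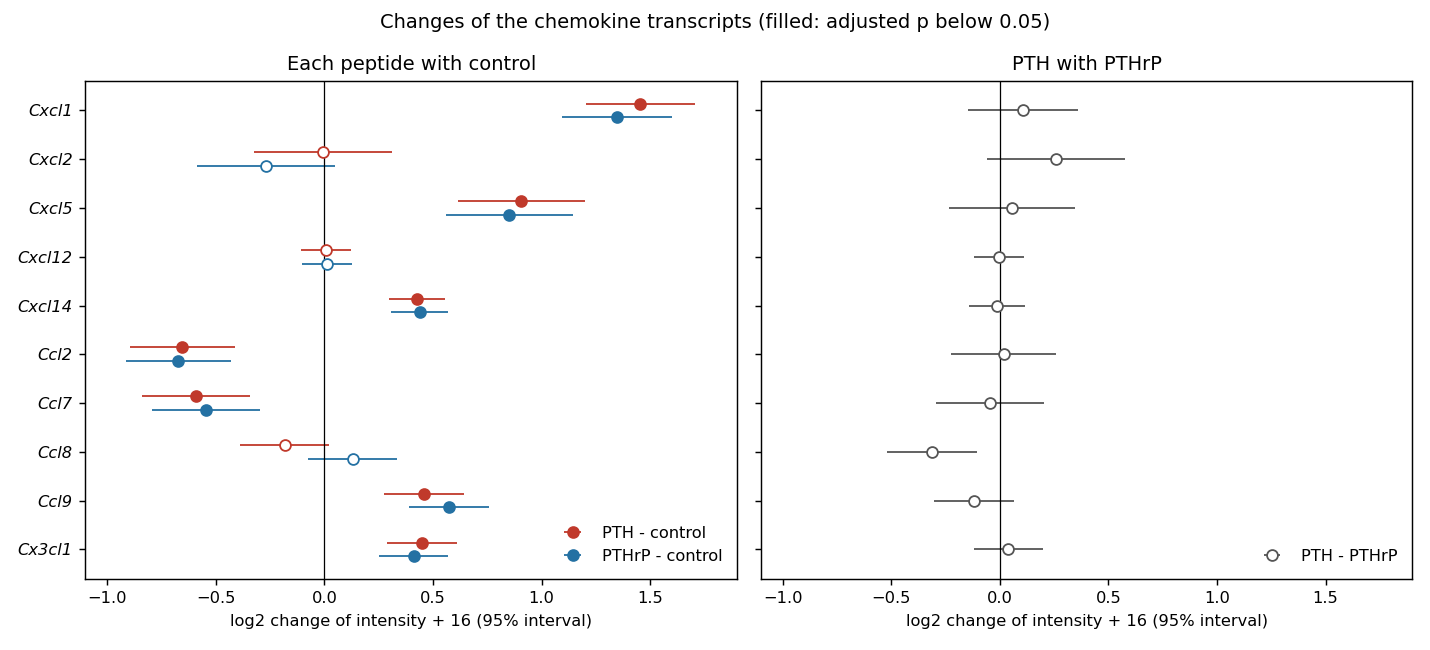
Log2 change of intensity plus 16 for the 10 chemokine genes, with 95% intervals from limma; the left panel sets each peptide against control, the right panel PTH against PTHrP, and filled points have an adjusted p below 0.05. The changes run from -0.67 to 1.45 against control, while no point is filled for PTH against PTHrP.

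PTH was compared with PTHrP directly to ask whether the peptides differed in their chemokine response. None of the 10 genes was called, and none of the 18193 genes was (0%), although 730 genes (4.01%) had an unadjusted p below 0.05. A pseudocount of 1 gave 2 calls among all genes, and leaving out PTHrP replicate 1 gave 1. The log2 difference, PTH minus PTHrP, was 0.11 for Cxcl1 (95% interval -0.14 to 0.36) and 0.06 for Cxcl5 (-0.24 to 0.35). It was 0.02 for Ccl2 (-0.22 to 0.26) and -0.04 for Ccl7 (-0.29 to 0.20). For Cxcl14, Cx3cl1 and Cxcl12 the intervals were narrower, at -0.14 to 0.12, -0.12 to 0.20 and -0.12 to 0.11. A p that misses the threshold does not show that the peptides act alike, and these intervals bound how far apart they could be. Ccl9 differed by -0.12 (-0.30 to 0.07) and the dim Cxcl2 by 0.26 (-0.06 to 0.58). Ccl8 was the 1 gene of the set whose PTH arrays (68.1 to 75.3) all lay below its PTHrP arrays (86.7 to 107), as 3.83% of all genes did. Its difference of -0.31 (-0.52 to -0.11) had an unadjusted p of 0.00782 and an adjusted p of 0.999 (limma).

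Within groups, the same arrays tended to lie at the edge. Control replicate 1 was the control nearest to the treated arrays in 5 of the 7 genes that changed (Cxcl1, Cxcl5, Ccl2, Ccl7 and Ccl9), and PTHrP replicate 3 was the PTHrP array nearest to the controls in the same 5. In Cxcl14 and Cx3cl1 these places were taken by control replicate 3 and PTHrP replicate 1. Control replicate 1 thus lay toward the treated cells in those 5 genes. In the other genes it was the control farthest from them, at 688 beside 724 and 725 for Cxcl14 and 84.0 beside 93.3 and 105 for Cx3cl1. Some array is always nearest, and how often it was control replicate 1 over all genes was not counted.

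The probe sets of a gene were compared to see whether the changes rested on a single one. Of the 19, 9 were higher and 2 lower with each peptide, where 2.70% of all 45037 probe sets were called with PTH (1.34% higher, 1.37% lower) and 2.39% with PTHrP (1.19% higher, 1.20% lower). The 3 Cxcl1 probe sets all rose, by log2 1.45, 1.38 and 1.10 with PTH and 1.35, 1.25 and 1.01 with PTHrP. The second Cxcl14 probe set rose more than the brightest one, from 542 to 886 with PTH (log2 change 0.69, adjusted p over probe sets 0.00771, limma) and to 972 with PTHrP (0.82, adjusted p = 0.00346). Both Ccl9 probe sets rose, the second by 0.39 with PTH and 0.63 with PTHrP. Cxcl12 had a second bright probe set, at 1832 in controls, 1814 with PTH and 1756 with PTHrP, which did not pass the test either, and another below the dim level. Cx3cl1 was called by 1 of its 4, and its other probe sets had means of 20.6, 4.04 and 3.66. Leaving out PTH replicate 1, 2 or 3 brought the probe sets called higher with PTH to 5, 4 and 5, and without control 2, control 3 or any PTH array the probe sets called lower with PTH fell to 0. With PTHrP the probe sets called lower were 0 without control 2, control 3, PTHrP 1 or PTHrP 2, and 1 without control 1 or any PTH array.

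**Figure D3:**
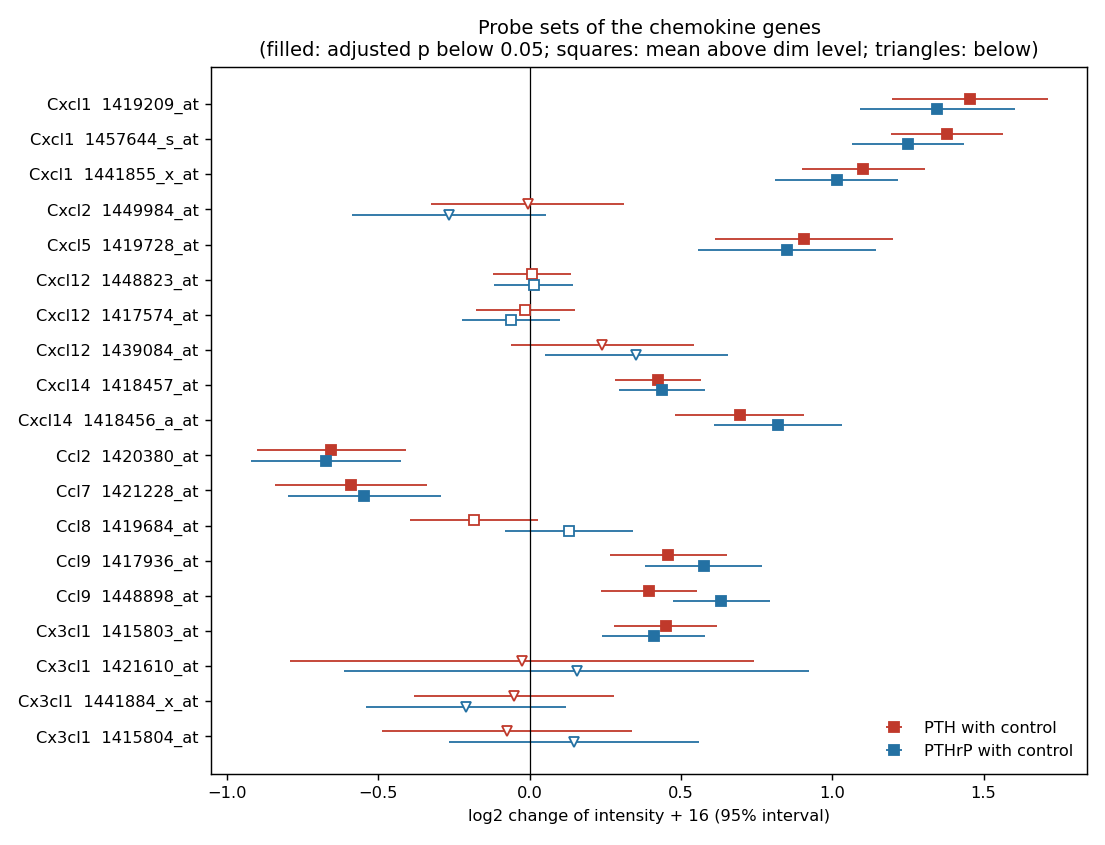
Log2 change of intensity plus 16 for the 19 probe sets of the 10 genes, with 95% intervals from limma over all probe sets; red is PTH and blue PTHrP with control, filled symbols have an adjusted p below 0.05, and triangles are below the dim level. All 3 Cxcl1 probe sets lie at 1.01 or more, and the 5 dim ones are unfilled.

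Of the 24 other chemokine ligands measured, of 26 listed, 14 were above the dim level. Cxcl3 alone was called higher with either peptide, where 2.96% of all genes were with PTH and 2.54% with PTHrP. Cxcl3 (log2 changes 0.84 and 0.85), a neutrophil attractant of the Cxcl1 cluster, read 42.2, 41.2 and 41.1 in controls, 88.8, 87.2 and 84.2 with PTH, and 83.9, 86.3 and 94.2 with PTHrP. The treated values were about 2.09 and 2.12 times the controls and varied little (SE 0.05, adjusted p = 0.000132 and 9.31e-05, limma), and the call stood in all 18 alternative analyses. None was called lower with PTH and 1 with PTHrP, where 3.14% and 3.03% of all genes were. Cxcl13, with a mean of 54.6, changed by -0.31 with PTH and -0.24 with PTHrP and did not pass (adjusted p = 0.0571 and 0.137, limma). It passed in 5 of 18 alternatives for PTH and in 0 of 18 for PTHrP. Cxcl11, a ligand of Cxcr3, was called lower with PTHrP (log2 change -0.60, adjusted p = 0.0449), but its means of 20.2 and 8.22 were below the dim level and the call was lost in 12 of 17 alternatives. Among these were the analyses without control replicate 1, 2 or 3 (adjusted p = 0.105, 0.135 and 0.0813), without PTHrP replicate 1 or 3 (0.0596 and 0.0745) and without PTH replicate 1, 2 or 3 (0.0767, 0.0704 and 0.0741).

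Cxcl9 and Cxcl10, interferon-induced ligands of Cxcr3 that attract T cells, are named because of their values. Cxcl10 read 1245, 2665 and 2266 in controls, 889, 807 and 939 with PTH, and 777, 1084 and 1560 with PTHrP. Cxcl9 read 260, 497 and 428 in controls, 213, 213 and 218 with PTH, and 196, 255 and 345 with PTHrP. In both genes control replicate 1 was much the lowest control, and the PTHrP arrays overlapped the controls. The log2 changes were large but did not pass, at -1.15 with PTH and -0.83 with PTHrP for Cxcl10 (SE 0.31, adjusted p = 0.0754 and 0.199, limma) and -0.78 and -0.53 for Cxcl9 (SE 0.25, adjusted p = 0.120 and 0.307). Without control replicate 1 both passed for PTH, with -1.47 for Cxcl10 (adjusted p = 0.0232) and -1.05 for Cxcl9 (0.0302). Cxcl10 also passed for PTH with all arrays kept when dim genes were left out (adjusted p = 0.0396, limma) and with a pseudocount of 64 (0.0325). Of 18 alternatives, Cxcl10 thus passed in 3 and Cxcl9 in 1 for PTH, and each in 0 for PTHrP.

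**Figure D4:**
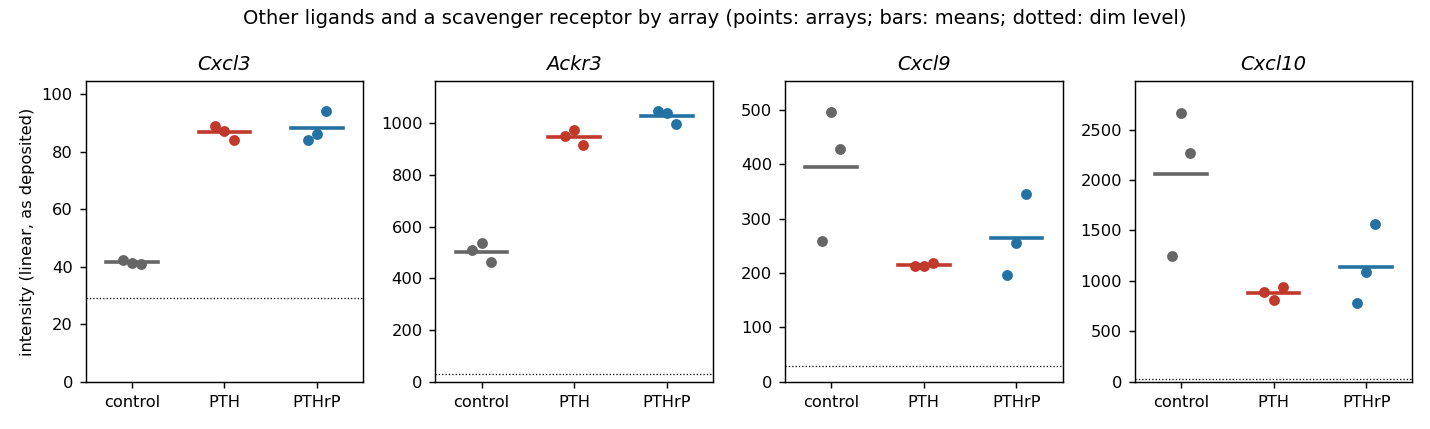
Intensity on each array of Cxcl3, of Ackr3, a scavenger receptor of Cxcl12, and of Cxcl9 and Cxcl10; points are arrays, bars are means of 3 arrays, and the dotted line is the dim level of 29.2. Cxcl3 and Ackr3 separate treated from control arrays, while the first control of Cxcl9 and Cxcl10 lies far below the other two.

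Of the 20 chemokine receptors measured, of 22 listed, 8 were above the dim level, 1 rose and none fell with each peptide, where 2.96% of all genes rose with PTH and 2.54% with PTHrP. Ackr3, the atypical receptor that binds Cxcl12 and takes it up without calling cells forward, read 509, 536 and 464 in controls, 948, 975 and 916 with PTH, and 1047, 1039 and 995 with PTHrP. All 6 treated arrays lay far above the 3 controls. The log2 change was 0.89 with PTH (SE 0.06, adjusted p = 0.000200, limma) and 1.01 with PTHrP (SE 0.06, adjusted p = 0.000107), past the threshold in all 18 alternatives. Its ligand Cxcl12 was not called. Cxcr2, Ccr2 and Cx3cr1 were below the dim level, with control means of 6.49, 7.12 and 5.70, while Ccr1, at 37.7, was just above it.

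**Figure D5:**
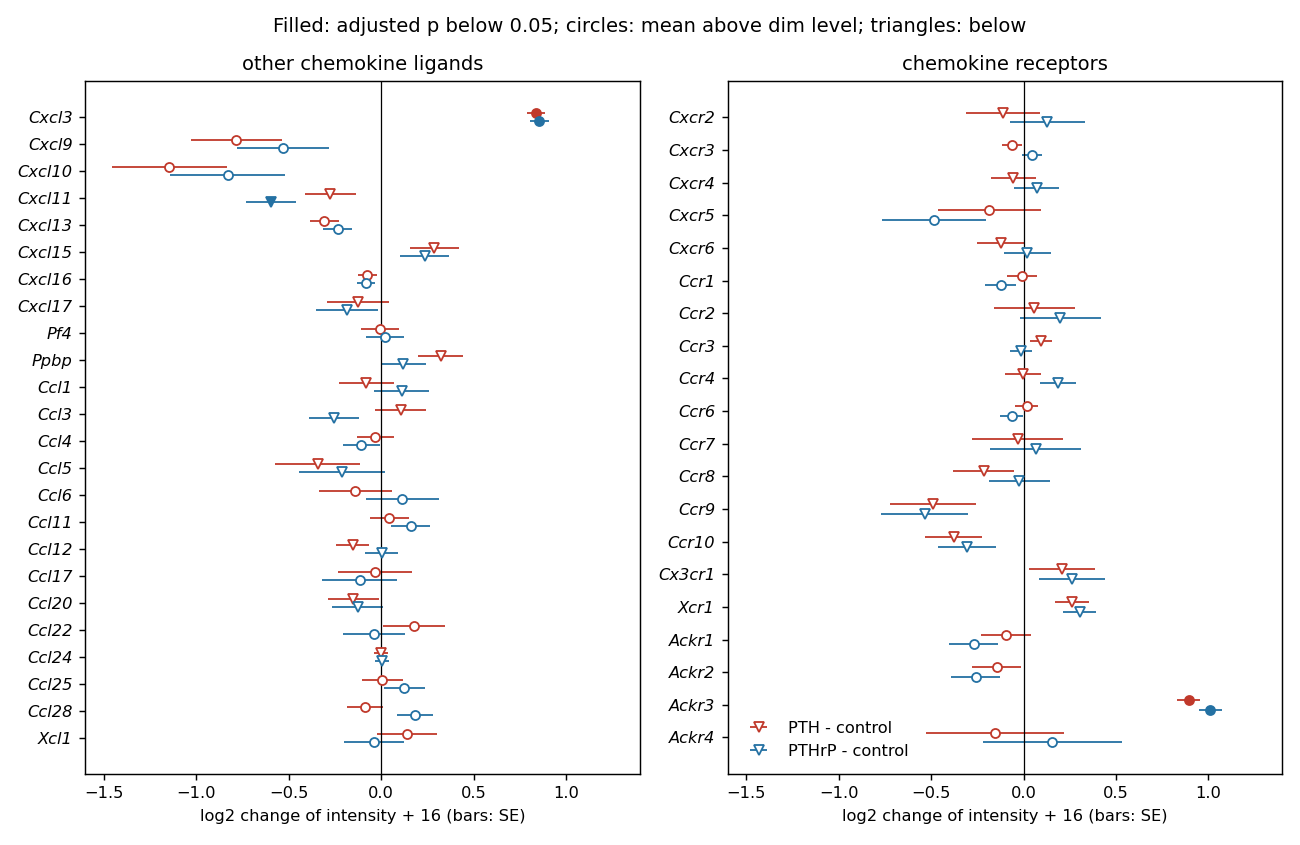
Log2 change of intensity plus 16 with its standard error for the 24 other ligands (left) and 20 receptors (right); red is PTH and blue PTHrP with control, filled symbols have an adjusted p below 0.05, and triangles have a mean below the dim level. Cxcl3 and Ackr3 are filled for both peptides, and Cxcl11 for PTHrP.

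Genes that act on chemokines or their transcripts were counted from 3 further lists. Across all genes, 2.96% were called higher and 3.14% lower with PTH, and 2.54% and 3.03% with PTHrP. None of 10 chemokine-cutting enzymes passed the test with either peptide. Of all genes, 19.0% had an unadjusted p below 0.05 with PTH and 18.3% with PTHrP, and of these enzymes 2 and 1 did (limma). The largest changes there were those of Anpep, aminopeptidase N (log2 0.55 and 0.27, adjusted p = 0.0959 and 0.452), and Mmp2, a gelatinase that trims Ccl7 (0.20 and 0.20, adjusted p = 0.0774 and 0.0814). Of 18 genes of the NF-κB pathway and its targets, 7 had an unadjusted p below 0.05 with each peptide (limma). The list moved in both directions. All treated arrays lay below every control for Rela, Nfkbie, Tnfaip3, Vcam1 and Ikbkb, and above every control for Sod2 alone. Over all genes, 13.2% lay wholly below control and 12.8% wholly above with PTH, and 12.0% and 10.4% with PTHrP. Activity of NF-κB was not tested. Sod2, the mitochondrial superoxide dismutase, rose with PTH (0.24, adjusted p = 0.0179) and reached 0.19 with PTHrP (adjusted p = 0.0501). Its PTH call was lost without control replicate 2 (adjusted p = 0.0651) or 3 (0.0570) and without PTH replicate 2 (0.0752) or 3 (0.0764). Vcam1, which holds leukocytes to endothelium, fell by 0.21 with PTH and by 0.22 with PTHrP on the log2 scale (adjusted p = 0.0460 and 0.0458, limma), but passed in only 3 of 18 alternatives and in none that left out an array (adjusted p from 0.0561 to 0.169). Nfkbia, the inhibitor that NF-κB itself induces, stood at 2173 in controls, 1996 with PTH and 1902 with PTHrP and did not pass (adjusted p = 0.474 and 0.234). Of 10 factors of chemokine mRNA decay, 2 had an unadjusted p below 0.05 with each peptide (limma). Zfp36l2, which binds AU-rich tails, was the 1 called, and fell by 0.34 with PTH and by 0.32 with PTHrP (adjusted p = 0.0114 and 0.0153). Averaging over its probe sets gave a Zfp36l2 change of -0.04 (adjusted p = 0.847) and -0.15 (0.320). Its calls were also lost without PTH replicate 2 or 3 for PTH (adjusted p = 0.0510 and 0.0584) and without control replicate 1 or 2 for PTHrP (0.0520 and 0.0535). The median changes of the 3 lists, with PTH and PTHrP in that order, were -0.04 and -0.0096 for the enzymes, -0.05 and -0.02 for the NF-κB list, and -0.02 and 0.03 for the decay factors, close to the medians of all genes.

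Markers of leukocytes and of other cells that make or answer chemokines were measured on the same arrays. The summed intensity of 13 macrophage and monocyte markers was 1149 to 1249 in controls, 1205 to 1363 with PTH and 1182 to 1321 with PTHrP, and none of them passed the test. Csf1r, the growth factor receptor of macrophages, had means of 491, 603 and 599 (adjusted p = 0.0644 and 0.0753, limma), Lyz2, lysozyme, 204, 172 and 152 (0.508 and 0.309), and C1qa, a complement protein, 18.5, 7.17 and 9.64 (0.0729 and 0.155). Csf1r, Cd14, Lyz2, Adgre1, C1qb and Cd68 had means above the dim level, while the other 7, Mrc1, Fcgr1, Itgam, C1qc, C1qa, Cd163 and Marco, had means below it. The 9 neutrophil markers summed to 252 to 281, 241 to 298 and 275 to 302 in the same order, of which Ngp and Camp, with means over all arrays of 149 and 58.0, made up most. The other 7, among them S100a8, S100a9, Mpo, Elane and Csf3r, had means below the dim level. Lymphocyte markers summed to 192 to 205, 177 to 191 and 181 to 204, and endothelial markers to 455 to 512, 400 to 440 and 416 to 493. Mast cell markers summed to 118 to 143, 120 to 142 and 121 to 156. Adipocyte markers, with Fabp4 among them, summed to 52544 to 54896, 54130 to 57427 and 52342 to 55658, and preadipocyte and fibroblast markers to 41473 to 42137, 40227 to 41009 and 38785 to 42006. No marker of the neutrophil, lymphocyte, endothelial or mast cell lists passed the test with either peptide. With an unadjusted p below 0.05, as 19.0% of all genes had with PTH and 18.3% with PTHrP, there were 3 macrophage markers with each peptide, and 1 neutrophil and 2 endothelial markers with PTH. Taking for each gene the larger of its changes with PTH and PTHrP, those of S100a8 and S100a9, Cd79a and Ms4a1, Pecam1 and Kdr, and Kit and Fcer1a were the largest in their lists. Kdr, an endothelial growth factor receptor, had means of 150, 104 and 124 (adjusted p = 0.127 and 0.442) and was, with Kit, above the dim level. With PTH, the summed endothelial, lymphocyte, and preadipocyte and fibroblast markers each lay wholly below the controls. Above the dim level were 4 of the 8 endothelial, 1 of the 8 lymphocyte and 8 of the 9 preadipocyte and fibroblast markers. Of single genes, which are not sums, 13.2% lay wholly below control with PTH. The part of these 3 lists in the fall of Ccl2 and Ccl7 was not tested.

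Genes whose 9 values ran closest to Cxcl1 and Ccl2 were sought among 12811 genes above the dim level, by the root mean square difference of centred log2 values. Nearest to Cxcl1 were Rdh10, a retinol dehydrogenase (difference 0.103), Has2, which makes hyaluronan (0.117), and Il6, the inflammatory cytokine (0.121). Their log2 changes with PTH were 1.35, 1.27 and 1.30, and with PTHrP 1.43, 1.27 and 1.21. Nearest to Ccl2 were Oas1b, an interferon-induced gene of the oligoadenylate synthetase family (0.0572), Ccl7 (0.0610) and Nlrc5, the activator of MHC class I genes (0.0737). Oas1b changed by -0.62 with PTH and -0.65 with PTHrP, and Nlrc5 by -0.61 and -0.57, the last with an adjusted p of 0.0519 (limma). These genes were picked for their likeness over these arrays, so their changes are descriptions.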

How the data were processed

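RNA of 9 samples was hybridised to Affymetrix mouse arrays. The deposited values are the authors' intensities per probe set. Their summary method, background correction and scaling are unstated in the sources used here, and the linear scale was taken from their range (highest value per array 17113 to 18614). The platform table gave 1 symbol for 34945 of the 45101 probe sets, several for 932 and none for 9160, and 64 were array controls. The brightest probe set with 1 symbol stood for each of the 18193 genes, chosen from several for 9010 of them. The number of arrays, 3 per group, limits the precision.

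On log2(intensity + 16), limma 3.58.1 (R 4.3.3, statmod 1.5.0) estimated 3 group means over the 9 arrays, with its moderated variance and two-sided tests. The Benjamini-Hochberg adjustment ran over all genes in each comparison, or over all 45037 probe sets where that is said, with a threshold of 0.05. Promoter windows (250 bases before to 50 after the start) are RefSeq's on GRCm38.p6. Motif searches and figures used Python 3.11.15 and matplotlib 3.10.9. Data for 18193 genes were simulated with independent normal noise, from each gene's mean and within-group spread over all 9 arrays. Changes were added to the PTH arrays of genes drawn from those above the median level. In PTH with control, 88% of changes of 0.5 and 99% of changes of 1 on the log2 scale were found, with 12 false among 199 calls. These shares do not cover dimmer genes.

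The members and the 12 other lists were chosen with earlier results of these data known. The lists held 166 entries in all, of which 153 were measured. Named were the 10 genes, the genes of each other list past the threshold in either comparison, the 2 with the largest change in lists where none passed, and the 3 genes most like Cxcl1 and most like Ccl2. Other genes were named after their values were seen. The alternatives were quantile normalization, median centring, leaving out dim genes, averaging a gene's probe sets, pseudocounts of 1 and 64, a trended and robust variance, the replicate number as a block, leaving out each array in turn, and fitting only the 2 groups compared.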

Additional observations from a re-analysis of the deposited data

How the results depend on the processing

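For the 10 chemokine genes, the comparisons of both peptides with control were recomputed 358 times under the alternatives. Direction and call were kept in 325, the call was lost in 21 and gained in 0, and the sign turned in 12, all of genes that were not called. When single arrays were left out, 4 to 5 genes were called higher and 1 to 2 lower with PTH, and likewise 4 to 5 and 1 to 2 with PTHrP. With only the 2 groups fitted, 0 were called lower with PTHrP. The 9 probe sets higher and 2 lower became 4 to 9 and 0 to 2 with PTH when single arrays were left out, and 6 to 8 and 0 to 2 with PTHrP. Among probe sets, a pseudocount of 1 left 1 called lower with each peptide, and fitting only the 2 groups left 0 with PTHrP. The cause of these losses was not tested. Fits without an array or with only 2 groups held fewer arrays, while those with a pseudocount of 1 held all 9.

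The labels do not say what samples with the same replicate number shared. Of 9 same-numbered pairs, 2 had deviations from their group means correlated above 0.1 (r from -0.25 to 0.19, beside -0.25 to 0.32 for other pairs). With 3 arrays per group, these correlations cannot show whether the samples were paired. With the replicate number as a block, 1 gene was called lower with PTHrP (Ccl7 was lost, adjusted p = 0.0502), and 1 probe set was called lower with each peptide. Over all genes the block gave 672 calls with PTH and 575 with PTHrP in place of 1109 and 1013. Other alternatives gave 469 (without PTH replicate 3) to 1743 (trended and robust variance) calls with PTH and 455 (only the 2 groups) to 1648 (trended and robust variance) with PTHrP. Without PTHrP replicate 1 there were 513 calls with PTHrP.

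Signs turned for uncalled values near 0. Cxcl2 with PTH was 0.0050 after quantile normalization, 0.0135 after median centring and 0.00033 with a pseudocount of 1, and -0.13 to 0.0923 without single arrays. Cxcl12 ran from -0.0084 to 0.0275 with PTH and from -0.0069 to 0.0522 with PTHrP without single arrays. For PTH minus PTHrP, leaving out arrays gave -0.0303 to 0.15 for Cxcl5, -0.0439 to 0.0151 for Cxcl12, -0.0547 to 0.0192 for Cxcl14, -0.0562 to 0.13 for Ccl2 and -0.11 to 0.0776 for Ccl7, and the mean of probe sets gave -0.0510 for Cx3cl1. Genes below the dim level, Cxcl2 among the 10, give no readable change at this signal.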
